A study of Mustela putorius furo with 8 samples.

Results

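CF and WT pancreatic ductal epithelial (PDE) cultures from ferret were compared after 2 days at an air-liquid interface, the earliest of the 4 time points sampled. All retained cells of the day 2 libraries were included, 4499 from CF and 6224 from WT, which made 10723 of the 32945 retained cells of the whole series. The CF cells were CFTR KO/KO and the WT cells carried no CFTR knockout. Both came from pancreata of newborn ferrets. Ductal cells were expanded as passaged cultures and polarized on supports, and cells of 3 donors per genotype were pooled, so that donors could not be separated. No other treatment distinguished the groups. Each genotype was 1 droplet-based single-cell library at day 2. No test between genotypes was therefore possible, and every interval given here covers counting error only, at the 95% level. Genotype, donor pool, culture and library cannot be told apart.

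CFTR is the epithelial anion channel whose loss causes cystic fibrosis, and the pancreatic duct depends on it to move chloride, bicarbonate and water into the lumen. Without it, secretions thicken, ducts become obstructed and the exocrine pancreas is lost early in life. Duct cells can regain transcription factors of the embryonic pancreas such as PDX1 during injury. The comparison asks how CF and WT duct cells differed soon after they were polarized, before the later days of differentiation.

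Sequencing depth was similar on both sides. The WT library held 114585136 unique molecular identifiers (UMIs, each counting 1 captured RNA molecule) over its retained cells and the CF library 102328589, with medians of 16356.5 and 17833 UMIs per cell. Mitochondrial genes took a median of 9.17% of UMIs per WT cell and 7.04% per CF cell. The libraries shared 3 cell barcodes. Epithelial genes were high in both: KRT19, a duct keratin, was at 5113 CPM (UMIs of the gene per 1000000 UMIs of the library) in each library, and EPCAM, an epithelial adhesion molecule, at 88.5 CPM in WT and 98.8 CPM in CF. INS and GCG, the hormones of islet beta and alpha cells, had no UMI in either library. Of 23 acinar enzyme genes listed, 13 were measured, 6 of these had no UMI in either library, and CLPS, the cofactor of pancreatic lipase, was the 1 member that reached 10 CPM. None of the markers of fibroblasts (7), endothelial cells (5), glia (3) or ciliated cells (4) reached 10 CPM. Of 5 leukocyte markers measured, only CD68, a lysosomal protein, did, at 3.88 CPM in WT and 20.9 CPM in CF, and its part in the results was not tested.

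Most genes had similar levels in the CF and WT cultures. Differences were taken on the log2(CPM + 1) scale, which understates the change of low genes, for the 7899 genes of at least 10 CPM in either library. Of these, 342 (4.33%) were at least 2-fold higher in CF and 321 (4.06%) at least 2-fold lower, 92 and 119 of them by at least 4-fold. A majority of 6298 genes (79.7%) lay within 1.5-fold. The median difference over all genes tested was -0.00. Differences of at least 2-fold are described below as higher or lower. The background shares of 4.33% and 4.06% apply to each count of list members between CF and all WT cells. For counts against the SOX2-low WT cells described below, the shares are 2.11% higher and 1.46% lower. Within ductal cells of clusters that passed a marker check given further on, they are 3.52% and 3.01%.

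**Figure D1:**
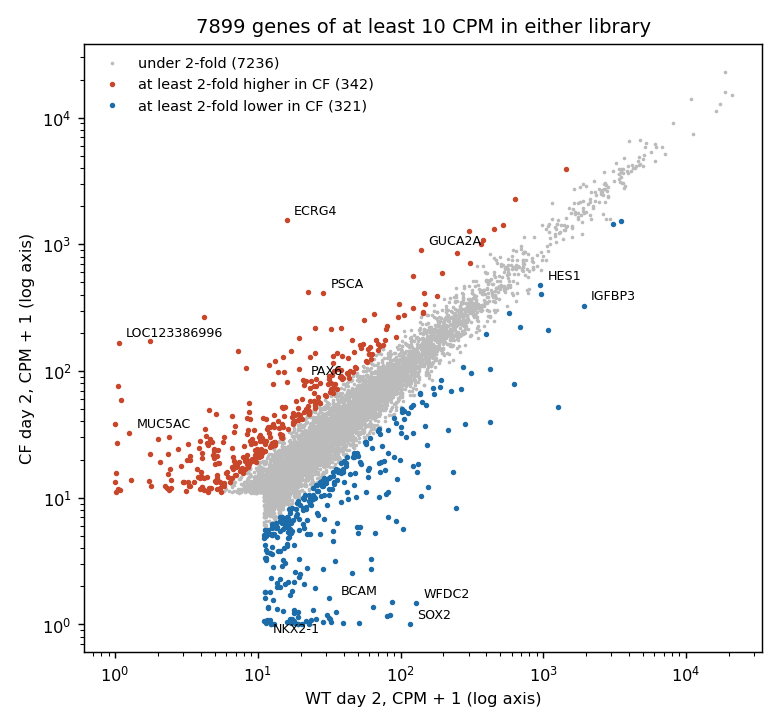
Level of each of 7899 genes in the WT library (x axis) and the CF library (y axis), both as CPM + 1 on log axes, with 342 genes at least 2-fold higher in CF in red and 321 at least 2-fold lower in blue. Genes such as SOX2 and WFDC2 lie at the floor of the CF axis while ECRG4 and LOC123386996 stand far above the diagonal.

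The genes with the largest deficit in CF were nearly absent from it. SOX2, a transcription factor of foregut and basal epithelia, had 13124 UMIs in WT and 1 UMI in CF. Its level was 115 CPM in WT (interval 113 to 117) and 0.00977 CPM in CF, a ratio of WT to CF of 11720 (2103 to 462958). WFDC2, a secreted protease inhibitor, was at 128 CPM in WT and 0.469 CPM in CF. RAB34, a GTPase of vesicle transport and cilium formation, was at 78.9 and 0.176 CPM. BCAM, a laminin receptor of the basal surface, was at 85.8 CPM in WT and 0.508 CPM in CF. RSPH4A, a radial spoke protein of motile cilia, was at 50.6 CPM in WT against 3 UMIs in CF. These 5 genes were each abundant in WT and close to nothing in CF.

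Further symbols had deficits of the same order. NKX2-1, the transcription factor that specifies lung and thyroid, was at 29.5 CPM in WT and 0.195 CPM in CF, a WT to CF ratio of 151 (97.7 to 248). TBX1, a transcription factor of the pharyngeal endoderm, was at 31.1 and 0.0977 CPM. ECHS1, an enzyme of mitochondrial fatty acid oxidation, was at 38.7 CPM in WT and had 3 UMIs in CF. The remaining members of the 15 symbols with the largest deficits were TCAF1, PANK4, MMP14, TCIM, PAOX, SNRPN and PROM1, and over the 15 the log2 deficit ran from 4.51 to 6.84. MMP14, a membrane-bound collagenase, was at 30.4 CPM in WT and 0.117 CPM in CF. SNRPN, a spliceosome protein encoded in a region that is imprinted in human and mouse, was at 24.4 and 0.107 CPM. PROM1, a protein of membrane protrusions used as a progenitor marker, was at 61.4 and 1.74 CPM. Among genes known only by a locus number, LOC106003392 was at 1273 CPM in WT and 51.0 CPM in CF, while LOC101675320 was at 83.9 and 0.195 CPM. LOC101685649, LOC101673788 and LOC101679831 had log2 differences of -5.53, -4.49 and -4.27.

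Among symbols of at least 20 CPM, the largest excess in CF on the log2(CPM + 1) scale was that of ECRG4. ECRG4, a secreted peptide precursor, had 1703 UMIs in WT and 158745 in CF. It was at 14.9 CPM in WT and 1551 CPM in CF, 104-fold higher (99.5 to 110). MUC5AC, the gel-forming mucin of the stomach and airway surface, had 30 UMIs in WT and 3212 in CF, 0.262 against 31.4 CPM, 120-fold higher (83.8 to 178). LY6D, a surface protein of squamous epithelium, was at 0.986 CPM in WT and 28.2 CPM in CF. PSCA, a related surface antigen, was at 27.8 CPM in WT and 409 CPM in CF. CST6, an inhibitor of lysosomal cysteine proteases, was at 7.27 and 104 CPM. Each of these was over 10-fold higher in CF.

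The rest of the 15 symbols with the largest excess had varied roles. MAL, an apical transport protein, was at 6.31 CPM in WT and 142 CPM in CF. PLAT, tissue plasminogen activator, was at 3.54 and 48.1 CPM, and MMP7, a matrix metalloproteinase of glandular epithelium, at 18.5 and 181 CPM. CRABP2, which carries retinoic acid to its nuclear receptor, was at 12.1 CPM in WT and 120 CPM in CF. CXCL14, an epithelial chemokine, was at 0.751 and 21.3 CPM. CD55, which restrains complement, was at 1.76 and 23.3 CPM. DUSP9, a MAP kinase phosphatase, PXDC1, GDPD2 and ISG20, an interferon-induced exonuclease, complete the 15, with log2 differences of 3.26, 3.66, 3.17 and 3.12. Within ductal cells, limited to clusters that passed a marker check given further on, the difference was 0.37 for MMP7, in place of 3.22, 1.52 for MAL, in place of 4.29, 1.90 for CXCL14, in place of 3.67, and 1.49 for ISG20. Over all cells of the deposited ductal class these differences were 2.55, 3.45, 3.49 and 2.44, so the smaller values depend on which clusters were kept. Genes known by locus number also had large excesses. LOC123386996 had 7 UMIs in WT and 17017 in CF, LOC101672794 had 86 and 17726, and LOC123394022 had 5 and 7709. LOC123393238 and LOC123394028 had log2 differences of 6.01 and 5.73.

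The WT culture held cells of a different kind with respect to these genes. The deposited clustering was made within each genotype over all days, and 12 of the 41 WT clusters had under 10 CPM of SOX2, with the highest of them at 4.87 CPM and the lowest of the other WT clusters at 50.6 CPM. At day 2 these SOX2-low clusters held 892 WT cells, 14.3% of the library (13.5 to 15.2), and the SOX2-high clusters held 5332. All 30 CF clusters fell under the limit, with the highest at 1.08 CPM. The split was made on SOX2 in the cells that were clustered, so the differences between the WT sets are descriptions. Over the 7899 genes, log2 levels in CF correlated more closely with the SOX2-low WT cells (Pearson r = 0.955 across genes) than with the SOX2-high WT cells (r = 0.875), and the WT sets correlated with each other at r = 0.903. Genes are not independent replicates, and the WT sets share a library.

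Most of the genes that differed by genotype no longer passed 2-fold in their direction when CF was set against the SOX2-low WT cells. Over the same 7899 genes, 167 (2.11%) were at least 2-fold higher in CF than in SOX2-low WT cells and 115 (1.46%) lower, against 436 (5.52%) and 358 (4.53%) for SOX2-high WT cells. Of the 342 genes higher in CF than in all WT cells, 80 (23.4%) remained at least 2-fold higher against SOX2-low cells and 53 had the opposite sign. Of the 321 lower genes, 72 (22.4%) remained lower and 82 had the opposite sign. Because CF was compared with both WT sets, the counts share the CF library.

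The genes lowest in CF fell into 2 kinds. Of the 15 symbols with the largest deficits, 13 were in SOX2-low WT cells at between 1.85% and 7.14% of their level in SOX2-high WT cells. SOX2, the gene of the split, is one of the 13, and its low level there was fixed by the split. NKX2-1 was at 1.09 CPM in SOX2-low and 33.7 CPM in SOX2-high WT cells, WFDC2 at 2.86 and 147 CPM, and ECHS1 at 0.817 and 44.3 CPM. The part of free RNA in these small remainders was not tested. The other 2 of the 15, BCAM and SNRPN, were as high in SOX2-low as in SOX2-high WT cells, at 95.7 and 84.4 CPM for BCAM and 26.4 and 24.1 CPM for SNRPN, so that both were near 0 in CF and in neither WT set. SELENOM, a selenoprotein of the endoplasmic reticulum, TGM2, a transglutaminase that cross-links matrix proteins, and EFEMP1, a matrix glycoprotein, were chosen after their values were seen and were higher in both WT sets than in CF. SELENOM was at 94.8 CPM in SOX2-low and 60.3 CPM in SOX2-high WT cells against 4.24 CPM in CF. TGM2 was at 42.1, 31.4 and 3.54 CPM in the same order, and EFEMP1 at 36.8, 64.5 and 2.26 CPM. By cluster, WT and CF overlapped for TGM2 and EFEMP1, and 3 SOX2-high WT clusters had between 2.13 and 2.98 CPM of TGM2.

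**Figure D2:**
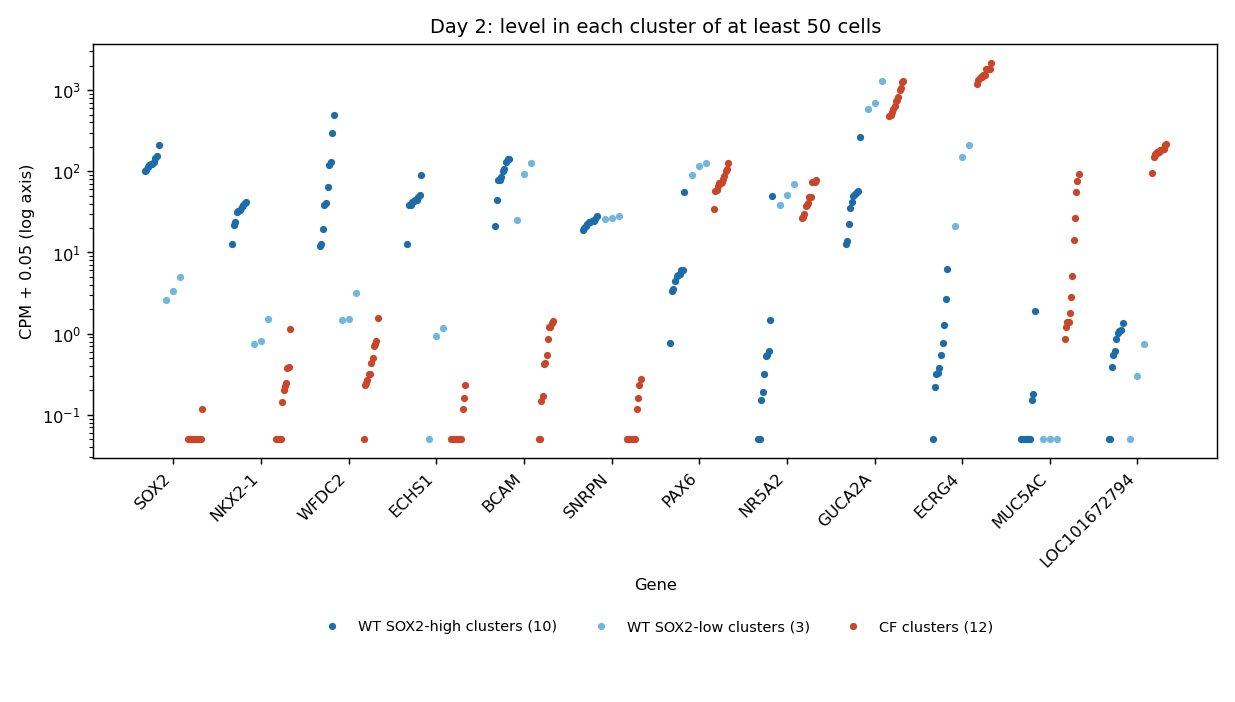
Level of 12 genes in each cluster of at least 50 cells at day 2 (CPM + 0.05, log axis), for 10 WT SOX2-high clusters, 3 WT SOX2-low clusters and 12 CF clusters. SOX2, NKX2-1, WFDC2 and ECHS1 are low in the SOX2-low WT and the CF clusters, BCAM and SNRPN are low in CF alone, PAX6, NR5A2 and GUCA2A are alike in SOX2-low WT and CF, and ECRG4 and LOC101672794 are highest in every CF cluster.

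Set against SOX2-low WT cells, 13 of the 15 symbols with the largest excess were still at least 2-fold higher in CF. Of the 15 with the largest deficits, 11 were still at least 2-fold lower, but only BCAM (-6.00) and SNRPN (-4.63) kept a deficit of the same size. The other 13 lay between -2.27, for SOX2 itself, and -0.59, for PROM1. Outside those 15, PAX6, NR5A2 and GUCA2A were as high in SOX2-low WT cells as in CF. GUCA2A, the intestinal peptide guanylin, was at 797 CPM in SOX2-low and 41.8 CPM in SOX2-high WT cells against 897 CPM in CF. NR5A2, a nuclear receptor of exocrine pancreas, was at 56.0, 0.531 and 55.1 CPM in the same order. In contrast, ECRG4 was at 110 CPM in SOX2-low WT cells and 1551 CPM in CF, and MUC5AC had no UMI in SOX2-low WT cells. LOC123394022 also had none there, and LOC101672794 was at 0.204 CPM. Every one of the 12 CF clusters of at least 50 cells had between 1178 and 2170 CPM of ECRG4, and the 13 WT clusters had between 0 and 209 CPM. For SNRPN, WT clusters lay between 18.8 and 28.1 CPM and CF clusters between 0 and 0.229 CPM, with no overlap in either gene. Over the 7899 genes, every CF cluster was above every WT cluster for 39 (0.494%) and below every WT cluster for 57 (0.722%). Of these, 25 and 44 were also at least 2-fold apart. Clusters of 1 library are not replicates.

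Among the genes whose clusters did not overlap, a few were chosen after their values were seen. FGFR3, a receptor for fibroblast growth factors, was at 3.94 CPM in WT and 22.4 CPM in CF, with 11.6 CPM in SOX2-low WT cells. CACNA2D1, a calcium channel subunit, was at 0.297 and 12.7 CPM. DSC3, a desmosomal cadherin, was at 24.7 and 75.0 CPM but at 1.84 CPM in SOX2-low WT cells, the order opposite to that of FGFR3. LDHB, the lactate dehydrogenase subunit of oxidative tissues, was at 98.0 CPM in WT and 19.0 CPM in CF. SLC25A4, the mitochondrial exchanger of ADP and ATP, was at 41.7 and 8.80 CPM, and at 43.8 CPM in SOX2-low WT cells. FOXD1, a forkhead transcription factor, was at 17.3 and 0.0195 CPM, and at 0.545 CPM in SOX2-low WT cells.

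Shares of cells with a UMI, after thinning to 3000 UMIs per cell, gave the same order. SOX2 was found in 27.1% of WT cells (26.0 to 28.2) and in 0 of 4460 CF cells. For CF the exact interval reaches 0.0827% and a limit of 3 cells 0.0673%. The SOX2 share was 0.786% in SOX2-low WT cells. ECRG4 was found in 95.4% of CF cells (94.8 to 96.0), 8.75% of SOX2-low WT cells (6.98 to 10.8) and 0.114% of SOX2-high WT cells (0.0419 to 0.248). The part of free RNA in these shares was not tested. SNRPN was found in 8.08% of SOX2-low and 7.54% of SOX2-high WT cells against 0.0224% of CF cells. PAX6 was found in 29.7% of SOX2-low WT cells (26.8 to 32.9), 1.52% of SOX2-high WT cells and 21.3% of CF cells (20.1 to 22.6). MUC5AC was found in 4.06% of CF cells (3.50 to 4.68) and in 0.0651% of WT cells. Without thinning the shares in WT and CF were 70.0% and 0.0222% for SOX2, 2.33% and 99.4% for ECRG4, 34.7% and 0.200% for SNRPN, 17.8% and 70.9% for PAX6, and 0.225% and 13.2% for MUC5AC.

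**Figure D3:**
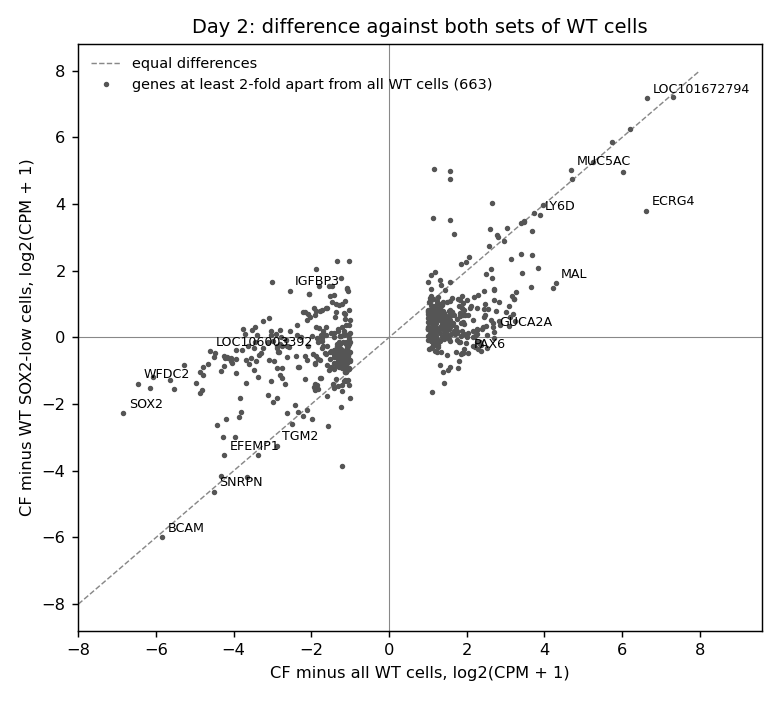
Difference of CF from all WT cells (x axis) and from SOX2-low WT cells (y axis), both on the log2(CPM + 1) scale, for the 663 genes at least 2-fold apart from all WT cells, with a dashed line where both are equal. SOX2, WFDC2, MAL and PAX6 lie toward the horizontal zero line, and BCAM, SNRPN, MUC5AC, LY6D and LOC101672794 lie along the dashed line.

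CFTR itself was low in both libraries. It had 753 UMIs in WT and 256 in CF, 6.57 CPM (6.11 to 7.06) against 2.50 CPM (2.20 to 2.83), a CF to WT ratio of 0.381 (0.329 to 0.439). The log2 difference was -1.11. The study describes the knockout ferret as lacking both CFTR mRNA and protein, whereas the CF library held CFTR UMIs. Which part of the transcript these came from cannot be read from the counts, and their source was not tested. When each cell was thinned to 3000 UMIs, 1.82% of WT cells (1.5 to 2.19) and 0.717% of CF cells (0.491 to 1.01) held a CFTR UMI, and without thinning 10.6% and 5.47% did. Thinning left out 80 WT and 39 CF cells. No cell type of the WT library was known to lack CFTR, so no share could serve as a background. In SOX2-low WT cells the thinned share was 1.01% (0.463 to 1.91), an interval that overlaps that of CF. In SOX2-high WT cells it was 1.96% (1.60 to 2.37). Across clusters, CFTR ran from 2.81 to 31.3 CPM in WT and from 1.24 to 5.35 CPM in CF, and the ranges overlapped. The WT maximum was in a cluster of 82 cells with a median of 1469.5 UMIs.

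PDX1 was found in CF alone. The study describes the donors pooled for these libraries as differing in PDX1 by genotype, in proliferating and in polarized cultures. The excess was thus already known for these donors. PDX1, the transcription factor that specifies the pancreas and later maintains beta cells, had 0 UMIs among the WT cells and 345 in CF, 3.37 CPM (3.03 to 3.75). Against the limit of 3 UMIs in WT it was at least 129-fold higher in CF. It lay between 0.764 and 12 CPM in the 12 CF clusters of at least 50 cells, 11 of which were above the limit of 3 UMIs, and had no UMI in the 13 WT clusters. After thinning, 1.17% of CF cells (0.872 to 1.53) held a PDX1 UMI. In WT 0 of 6144 cells did, for which the exact interval reaches 0.0600% and a limit of 3 cells 0.0488%. Without thinning 6.87% of CF cells held one. The SOX2-low WT cells also had none, a limit of 0.204 CPM.

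Other transcription factors of the pancreas were mixed. Of 23 progenitor factors listed, 8 reached 10 CPM, with 2 higher in CF, 1 lower and 5 neither, and a median difference of 0.22. NR5A2 was at 7.64 CPM in WT and 55.1 CPM in CF, and FOXA2, a pioneer factor of endoderm, at 8.60 and 26.1 CPM. HES1, the Notch effector that restrains endocrine fate, was at 953 CPM in WT and 475 CPM in CF. Against SOX2-low WT cells, which had 1663 CPM, its log2 difference was -1.81. SOX9, the duct progenitor factor, was at 3.57 and 6.0 CPM, 1.68-fold higher (1.48 to 1.91) and under the limit for a call. Its log2 difference turned to -0.18 against SOX2-low WT cells. ONECUT1, also named HNF6, was at 0.681 CPM in WT and 0.0977 CPM in CF. NKX6-1 had 0 UMIs in WT and 1 in CF. In the endocrine list, 4 of 26 measured genes reached 10 CPM. Among them PAX6, a factor of islet cells, was at 19.8 CPM in WT and 84.0 CPM in CF, 4.24-fold higher (4.05 to 4.44), but at 117 CPM in SOX2-low WT cells.

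Of 16 transcription factors of gut tube regions that reached 10 CPM, 8 were lower in CF, 1 was higher and 7 were within 2-fold, with a median difference of -1.04, while against SOX2-low WT cells the median was -0.01, with 4 of them higher in CF and 2 lower. Beside SOX2, NKX2-1 and TBX1, IRX1, a factor of proximal lung and other epithelia, was at 11.9 CPM in WT and had no UMI in CF, at least 406-fold higher in WT. PAX9, a factor of pharyngeal endoderm and oesophagus, was at 16.4 and 0.840 CPM. IRX3, chosen after its values were seen, was the higher one, at 3.97 CPM in WT and 23.3 CPM in CF. Among 35 HOX genes, 2 reached 10 CPM. HOXA3, which patterns the pharyngeal region, was at 10.5 CPM in WT and had 3 UMIs in CF, and HOXB7 was at 29.7 and 18.9 CPM.

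Of 38 S phase genes tested, 19 were lower in CF, none was higher and 19 were within 2-fold, while all 38 had a negative difference and the median was -0.97. CDCA7, a MYC and E2F target, was at 15.1 CPM in WT and 3.13 CPM in CF. CLSPN, a mediator of the replication checkpoint, was at 32.2 and 10.8 CPM, and TK1, thymidine kinase, at 26.8 and 9.30 CPM. Of 41 genes of G2 and mitosis, 22 were lower, none was higher and 19 were within 2-fold, with a median of -1.01. The medians against SOX2-low WT cells were -0.29 for S phase and -0.60 for G2 and mitosis. ANLN, which shapes the cleavage furrow, was at 24.9 and 6.59 CPM. CDK1, a mitotic kinase, was at 34.7 and 12.7 CPM, and AURKB, a kinase of chromosome segregation, at 22.5 and 7.81 CPM. Summed over each list, the levels were 1799 CPM in WT and 1029 CPM in CF for S phase, and 1778 and 1061 CPM for G2 and mitosis.

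These sums differed between sets of cells, and the part of cell mixture in them was not tested. Within the deposited ductal class, S phase genes summed to 1306 CPM in WT and 1021 CPM in CF, and G2 and mitosis genes to 898 and 831 CPM. The CF cells of this class included 385 of a cluster with TOP2A and MKI67 among its leading genes and 414 of another, both left unnamed by the marker check described further on. In the 4369 WT and 1794 CF ductal cells that passed it, the sums were 1307 and 1173 CPM for S phase and 897 and 840 CPM for G2 and mitosis. Both sides kept clusters with replication genes among their leading genes. These included 347 CF cells (MCM4, E2F1, TK1) and 908 WT cells (CDCA7, MCM2, MCM4). The WT cluster led by E2F1, UNG and CLSPN, with 339 cells, lay in the acinar class. Within the proliferating acinar class the S phase sums were 3935 CPM in WT and 3384 CPM in CF, and the mitotic sums 6600 and 6956 CPM. Among cells outside the proliferating classes, 15 S phase genes were still lower in CF, in place of 19, and 1 mitotic gene, in place of 22. That set keeps the 339 WT acinar cells, whose S phase genes summed to 4859 CPM, and CF had no acinar cell. In ductal cells alone 1 S phase gene was lower, in place of 19, and no mitotic gene, with or without the unnamed clusters. After thinning, 4.90% of WT cells (4.37 to 5.47) and 2.26% of CF cells (1.85 to 2.74) held a UMI of MKI67, a marker of cycling cells. TOP2A, the topoisomerase of dividing cells, gave 6.92% and 3.23%. Without thinning the shares were 13.2% and 8.02% for MKI67. Within the ductal class the order was the other way, with MKI67 in 0.572% of WT (0.370 to 0.843) and 1.24% of CF cells (0.851 to 1.75) and TOP2A in 1.67% and 2.48%. In ductal cells that passed the marker check, MKI67 was in 0.573% (0.371 to 0.844) and 1.12% (0.685 to 1.72), intervals that overlap. Unthinned, 2.58% of WT and 7.94% of CF ductal cells held an MKI67 UMI, at median depths of 14965 and 21784 UMIs. Among cell cycle brakes, cyclins and p53 targets, 3 of 17 were lower. MYC was at 45.6 CPM in WT and 20.1 CPM in CF, SESN1, a stress-induced inhibitor of mTORC1, at 35.4 and 15.7 CPM, and FAS, a death receptor, at 18.2 and 8.02 CPM.

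Of 20 interferon-stimulated genes tested, 6 were higher in CF than in WT as a whole, none was lower and 14 were within 2-fold, with a median of 0.69. In ductal cells alone 2 were higher. ISG20 was at 24.3 CPM in WT and 219 CPM in CF, MX2, an antiviral GTPase, at 3.46 and 25.0 CPM, and IFI6, a mitochondrial antiapoptotic protein, at 375 and 1082 CPM. Of the 892 SOX2-low WT cells, 556 and 130 belonged to clusters with ISG15, IFIT3 and ISG20 among their leading genes. Against SOX2-low WT cells none was higher, 7 were lower and the median was -0.51. DDX60, an RNA helicase, was at 422 CPM there, above the 136 CPM of CF. The summed level over 32 measured genes was 5662 CPM in SOX2-low and 2207 CPM in SOX2-high WT cells, and 4868 CPM in CF. In CF it was highest in the deposited centroacinar progenitor class, at 10259 CPM, against 2818 CPM in that class in WT.

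Several inflammatory genes were lower in CF than in WT as a whole. Of 21 NF-kB and inflammatory genes tested, 6 were lower in CF and 2 higher, with a median of -0.46. The comparison with SOX2-low WT cells had 2 lower and 2 higher, with a median of -0.07. ICAM1, which binds leukocyte integrins, was at 103 CPM in WT and 4.68 CPM in CF. CSF3, which calls neutrophils from marrow, was at 27.7 and 1.72 CPM, and CCL20, a chemokine for lymphocytes and dendritic cells, at 50.9 and 4.91 CPM. LTB, lymphotoxin beta, was at 80.8 and 10.1 CPM, and CXCL14 was the leading higher member. Immediate early genes were split against WT as a whole, with 3 of 23 lower and 2 higher. With SOX2-low WT cells as the reference 6 were lower and 1 higher, with a median of -0.54. JUN was at 968 CPM in WT and 405 CPM in CF, and JUND at 167 and 72.0 CPM. FOSL1, also of the AP-1 family, was at 20.8 and 49.3 CPM, and BTG1, a restraint on growth, at 308 and 711 CPM.

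Growth factor pathways differed by member more than as wholes. In the TGF-beta list 5 of 20 were higher and 2 lower, with a median of 0.24, and 1 was higher and 1 lower against SOX2-low WT cells. TGFB2, a ligand, was at 18.0 CPM in WT and 0.147 CPM in CF, and TGFBI, a matrix protein induced by the pathway, at 139 and 9.26 CPM. SKIL, a feedback repressor, was at 95.1 and 266 CPM, and PMEPA1, another feedback inhibitor, at 78.6 and 215 CPM. The ligand and TGFBI were thus lower while SKIL and PMEPA1 were higher. In the BMP list 2 of 17 were higher and 1 lower, and against SOX2-low WT cells 0 were higher and 0 lower, with a median of 0.07. BMP3, an atypical ligand, was at 4.82 and 29.1 CPM, SMAD6, an intracellular inhibitor, at 4.95 and 14.6 CPM, and FST, which binds activins and BMPs, at 121 and 52.6 CPM.

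Genes of WNT and Notch signalling were mostly under 2-fold. The WNT inhibitor DKK1 was at 14.3 CPM in WT and 28.5 CPM in CF. Of 12 Notch genes 2 were higher, the receptor NOTCH2 at 24.1 and 52.7 CPM and the receptor-modifying enzyme LFNG at 16.6 and 37.4 CPM, and HES1 was lower. Against SOX2-low WT cells 0 Notch genes were higher and 1 was lower. IRS2, the adaptor below the insulin receptor, was at 231 CPM in WT and 15.1 CPM in CF. In the insulin-like growth factor list 1 of 6 was lower, IGFBP3, a binding protein, at 1927 and 326 CPM. Among 15 EGF receptor genes, ERBB3 was higher, at 9.12 and 21.9 CPM. Of 10 retinoid genes, 2 were higher and 1 lower. CRABP2 and FABP5, both carriers of retinoic acid, were the higher ones, with FABP5 at 523 and 1423 CPM, and the receptor RARB was at 10.6 and 2.76 CPM.

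Several laminin, integrin and protease genes were higher in CF. Of 16 laminins and integrins tested, 4 were higher and none lower, and 15 had a positive difference, with a median of 0.46. In the comparison with SOX2-low WT cells 1 was higher and the median was 0.08. LAMB1, a laminin chain, was at 3.64 CPM in WT and 28.3 CPM in CF. The integrins ITGB3, ITGA2 and ITGB5 were at 7.50 and 33.3, 16.7 and 45.7, and 20.1 and 46.4 CPM. Of 13 metalloproteinase genes, 5 were higher and 1 lower, against 2 and 1 for SOX2-low WT cells. MMP13, a collagenase, was at 53.7 and 164 CPM, beside MMP7, PLAT and MMP15, and MMP14 was the lower one. Of 3 collagens tested, COL18A1, a basement membrane collagen, was higher, at 11.1 and 35.0 CPM, and none was higher against SOX2-low WT cells. None of 5 mesenchymal genes was past 2-fold, with a median of -0.12. VIM, the mesenchymal filament, was at 13.9 CPM in WT and 14.8 CPM in CF, and SNAI2, a repressor of epithelial genes, at 43.2 and 29.9 CPM. None of 25 junction genes was past 2-fold, although 20 had a positive difference, with a median of 0.32. CDH1, E-cadherin, was at 244 and 452 CPM, and OCLN, a tight junction protein, at 41.2 and 67.7 CPM.

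Genes of simple epithelium were mostly within 2-fold, and basal and squamous genes were divided against WT as a whole. Of 19 genes of simple and duct epithelium, PROM1 was lower and none was higher. The duct keratin KRT7 was at 1145 CPM in WT and 2133 CPM in CF, and MUC1 at 421 and 843 CPM. Of 20 basal and squamous genes, 4 were lower and 3 higher. With SOX2-low WT cells as the reference 1 was lower and 4 were higher, with a median of 0.20. The levels that follow are those of all WT cells and CF. The desmosomal cadherins DSC2 and DSG3 were at 16.5 and 0.107, and 49.0 and 4.29 CPM. KRT15, a keratin of basal cells, was at 131 and 17.4 CPM. The basal regulator TP63, chosen after its values were seen, was at 86.4 and 72.0 CPM, and KRT5 at 1077 and 887 CPM. Of 16 S100 and annexin genes, 2 were lower and 1 higher, with ANXA5, a phosphatidylserine-binding annexin, at 94.0 and 13 CPM and S100A9, a neutrophil and epithelial alarmin, at 424 and 102 CPM.

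Secretory genes were divided against WT as a whole. Of 12 mucins and secreted duct products, 4 were higher and 4 lower. With SOX2-low WT cells as the reference 6 were higher and 1 lower, with a median of 1.09. Beside MUC5AC, GKN1, a gastric mucosal protein, was at 20.1 CPM in WT and 77.0 CPM in CF. Beside WFDC2, SCGB3A2, an airway secretoglobin, was at 12.7 and 0.958 CPM, and MUC13, a transmembrane mucin, at 15.7 and 4.72 CPM. Among duct secretion genes, KCNE3, which tunes the basolateral potassium channel KCNQ1, was at 48.6 and 4.89 CPM, while KCNQ1 was at 16.8 and 26.1 CPM. AQP3, a water and glycerol channel, was at 376 and 675 CPM. Of 10 sodium transport genes, ATP1B1, a subunit of the sodium pump, was higher, at 146 and 415 CPM, and SCNN1A, a subunit of the epithelial sodium channel, was at 62.1 and 112 CPM. Of 5 dual oxidase and barrier genes, DUOX2, which makes hydrogen peroxide at the apical surface, was at 8.52 and 20.6 CPM, and TGM2 was the lower one.

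In the stress and metabolic lists few members were past 2-fold. Counts such as 1 of 23 and 1 of 20 lower lie near the background share of 4.06%. Of 31 NRF2 and glutathione genes, 4 were higher and 2 lower, with a median of 0.06. PRDX1, a cytosolic peroxidase, was at 638 CPM in WT and 2268 CPM in CF, and PRDX2, its close relative, at 215 and 33.2 CPM. GCLM, which sets the rate of glutathione synthesis, was at 365 and 1003 CPM, and ATOX1, a copper chaperone, at 450 and 1326 CPM. Of 30 genes of endoplasmic reticulum stress, 4 were lower and none higher, and 24 had a negative difference. DDIT3, the stress factor CHOP, was at 76.6 and 15.7 CPM, NUPR1 at 121 and 31.3 CPM, and HERPUD1, which helps to degrade misfolded proteins, at 141 and 56.5 CPM. Among 13 heat shock genes, HSPB1 was higher, at 248 and 850 CPM. Of 27 glycolysis and hypoxia genes, 2 were higher, the lipid droplet protein HILPDA at 23.8 and 75.1 CPM and the collagen-modifying enzyme P4HA1 at 68.1 and 164 CPM. Of 23 genes of cholesterol and fatty acid synthesis, MVD was lower, at 32.5 and 13.9 CPM, and 20 had a negative difference. Of 20 chromatin regulators, UHRF1, which maintains DNA methylation, was lower, at 27.7 and 11.3 CPM. None of the 13 mitochondrial genes was past 2-fold, and their summed level was 95034 CPM in WT and 77663 CPM in CF.

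The deposited cell classes differed in share between the libraries. Ductal cells made 71.5% of WT (70.4 to 72.6, exact binomial interval) and 57.6% of CF cells (56.2 to 59.1). Proliferating acinar cells made 10.4% of WT and 3.42% of CF cells. The acinar class held 339 WT cells (5.45%) and no CF cell, for which the same interval reaches 0.0820% and a limit of 3 cells 0.0667%. The centroacinar class held 29 WT cells (0.466%) and 1131 CF cells (25.1%), and the centroacinar progenitor class 11.5% and 13.8%. Genotypes were clustered apart, and each cluster was named as a whole in the deposited table, so a share also reflects how each clustering was cut and named.

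**Figure D4:**
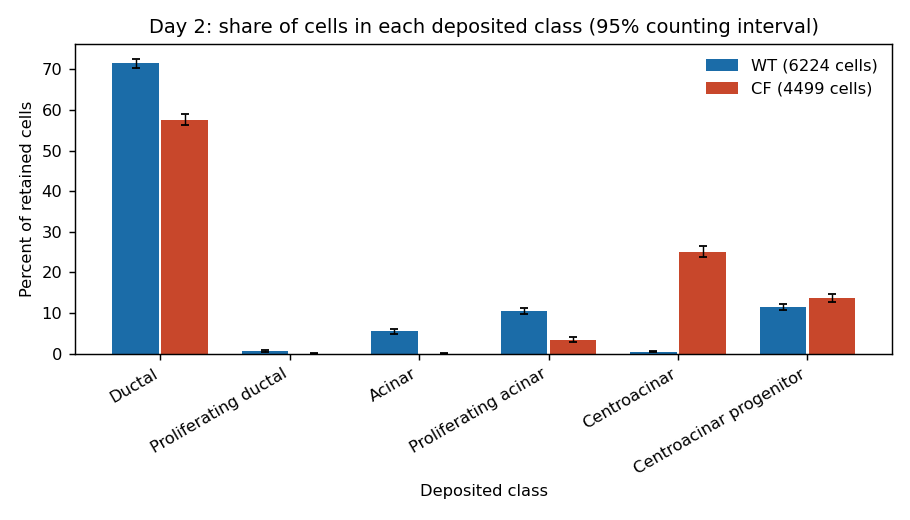
Percent of retained cells in each deposited class at day 2, with WT in blue (6224 cells) and CF in red (4499 cells), and error bars for the exact 95% binomial interval, which covers counting error only. The ductal share is 71.5% in WT and 57.6% in CF, and the centroacinar share is 0.466% and 25.1%.

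The names did not always go with the markers. All 5 measured centroacinar markers (KRT7, WSB1, PROM1, S100A6 and S100A4) were lower in the 1131 CF cells with that name than in the other CF cells, whereas all 5 were at least 1.5-fold higher in the 29 WT cells. The largest CF cluster of this name, with 726 cells, was led over the other CF clusters by DLK2, SCN4B and RUNDC3A, and the next, with 221 cells, by LOC101690036, LOC101686814 and the chemokine CXCL6. Of 6 ductal markers, none was at least 1.5-fold higher in ductal CF cells than in the rest, and CAPG, KRT5 and KRT19 were lower. The WT acinar cluster was led by E2F1, UNG and CLSPN, genes of DNA replication. Of 7 acinar markers, PRDX2, FKBP4 and FKBP11 were at least 1.5-fold higher in the 339 WT acinar cells than in the rest. None of the 7 was lower there, and this cluster kept its name. In 13 clusters, 5 of WT and 8 of CF, the top genes by fold matched another class better than the deposited one, or cells were shallow and none of these genes was a marker of the class. These clusters held 88 WT and 978 CF cells at day 2 and were left unnamed. Unless its cells were shallow, a cluster with no marker of any class among its top 10 genes kept its name. The ductal WT clusters 4 and 6, with 1025 and 908 cells, passed in this way, so passing does not establish ductal identity. CF clusters 8, 9 and 28, with 414, 385 and 150 cells, were left unnamed over 1 gene of another class. Of the 6136 WT and 3521 CF cells left, ductal cells made 71.2% and 51.0%, centroacinar cells 0.440% and 27.2%, and centroacinar progenitor cells 11.6% and 17.4%.

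Within classes, the leading genes were largely those of the whole libraries. Only kept clusters were used, for the 3 classes with at least 50 cells on both sides. In the ductal class (4369 WT and 1794 CF cells), 274 of 7782 genes (3.52%) were higher in CF and 234 (3.01%) lower. Lowest were SOX2, WFDC2, RAB34, BCAM and ECHS1, and highest were ECRG4 (18.2 and 1784 CPM), LY6D, PXDC1, CST6 and DUSP9. Of the ductal WT cells of the deposited table, 849 of 4452 belonged to SOX2-low clusters. In the proliferating acinar class (650 and 154 cells), 379 of 8047 genes (4.71%) were higher and 281 (3.49%) lower. There NR5A2 was at 0.0640 CPM in WT and 47.9 CPM in CF, and TSPAN15, a tetraspanin, at 0.576 and 111 CPM. NRN1 was at 1.34 and 118 CPM, and RAB34, RSPH4A, TCAF1 and TBX1 had no UMI in the CF cells of this class. Proliferating acinar WT cells held none of the SOX2-low clusters.

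The centroacinar progenitor class (711 and 614 cells) had 584 of 7678 genes (7.61%) higher in CF and 270 (3.52%) lower, and the median difference over its tested genes was 0.21. MAL was at 2.82 CPM in WT and 521 CPM in CF, NRN1, a surface protein of neurons and other cells, at 2.75 and 333 CPM, and GUCA2A at 21.8 and 1284 CPM. WFDC2 was at 291 and 0.270 CPM, RSPH4A at 122 CPM and no UMI, PROM1 at 302 and 4.11 CPM, and TCIM at 83.7 and 0.944 CPM. This WT class, too, held no SOX2-low cell. The deposited name placed 682 of its 714 WT cells in 1 cluster and 613 of its 621 CF cells in 1 cluster, both of which had SCGB1A1, the club cell secretoglobin of airways, among their leading genes.

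Several of these genes lie next to each other. In the RefSeq table of the ferret assembly ASM1176430v1.1, which the authors also aligned to and which names no chromosomes here, 9504 genes of at least 5 CPM were put in order, and 9 runs of at least 3 neighbours had at least 2-fold differences in 1 direction, 8 of them lower in CF. The longest was higher in CF and held 7 genes from LOC123394019 to LOC123394028. Together with the untested genes beside them, 13 genes of this stretch held 49 UMIs in WT and 36685 in CF. LOC123386996 lies inside it. The next run, MTG1, PAOX, ECHS1, FUOM and PRAP1, was lower in CF. MTG1, a mitochondrial ribosome GTPase, was at 11.3 CPM in WT and had no UMI in CF, at least 386-fold higher in WT. FUOM, a fucose mutarotase, was at 14.4 and 1.07 CPM, and PRAP1, an epithelial lipid-binding protein, at 10.6 and 0.0782 CPM. All 5 were low in SOX2-low WT cells as well, with 0.204 CPM for MTG1.

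Another lower run held NDN, SNURF and SNRPN. NDN, also imprinted in human and mouse, was at 20.7 CPM in WT and 0.0684 CPM in CF, and SNURF at 10.0 and 0.0684 CPM. In SOX2-low WT cells SNURF was at 11.4 CPM but NDN at 1.16 CPM, so these neighbours did not move together between the WT sets. MKRN3, in the same region and under the CPM limit, had 302 UMIs in WT and none in CF. The linker histone genes H1-4 and H1-5 each lay in a lower run. Sequence ends were taken where start positions fall in the table, which can join unlinked sequences. The genes of these runs were named after their values were seen.

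The day 2 differences were in part those of later days. Of the 321 lower genes, 198 (61.7%) were also at least 2-fold lower at day 5, 181 (56.4%) at day 7 and 139 (43.3%) at day 9, 108 of them (33.6%) on every day. Of the 342 higher genes, 118 (34.5%), 139 (40.6%) and 107 (31.3%) were also higher, 69 (20.2%) on every day, and 169 (49.4%) at no later day. The shares of all tested genes past 2-fold at the later days are not given here. How far these overlaps exceed those shares therefore cannot be read from them. Each day is 1 library per genotype, and the later days were compared with all WT cells. The make-up of the WT cells differed between days. Of the SOX2-low clusters, WT cluster 0 held 1117 cells over all days and 8 at day 2. WT cluster 8 held 810 and 0, and WT cluster 19 held 570 and 556. The part of this make-up in the changes between days was not tested. All 15 symbols with the largest deficits were at least 2-fold lower on every day. SOX2 had log2 differences of -6.84, -6.10, -6.03 and -6.46 from day 2 to day 9, and SNRPN of -4.52, -4.75, -4.42 and -4.23. Of the 15 with the largest excess, 9 were higher on every day. ECRG4 had differences of 6.61, 6.43, 5.52 and 4.91, and PDX1 of 2.13, 2.51, 2.58 and 2.44.

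Other genes stood apart at day 2. HSD17B2, which inactivates sex steroids, was at 24.3 CPM in WT and 0.938 CPM in CF at day 2, but at 2.55 and 4.41 CPM at day 5, and its log2 difference went from -3.71 to 0.61, 0.24 and 0.96. NT5E, the surface enzyme that makes adenosine, was at 80.2 CPM in WT and 6.05 CPM in CF at day 2, and at 3.70 and 6.66 CPM at day 5. In both genes the WT level was high at day 2 and low on each later day. Against SOX2-low WT cells alone the day 2 differences turned, to 0.09 for HSD17B2, 0.22 for NT5E, 1.40 for IGFBP3, 0.37 for RNF125 and 1.29 for BCO2. RASSF9 had differences of -2.77, -0.40, -0.46 and -0.34, and IGFBP3 of -2.56, -0.13, -0.93 and 0.48. RNF125 and BCO2 were also lower at day 2, at -2.38 and -2.05. DLK2, a Notch-related membrane protein, was within 2-fold at day 2, at -0.22, and between 1.64 and 1.91 later.

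For MUC5AC, MMP7 and PLAT, whose excess was largest at day 2, the WT level was the lowest at that day. MUC5AC was at 0.262 CPM in WT and 31.4 CPM in CF at day 2, at 12.6 and 74.2 CPM at day 5, and at 126 and 45.9 CPM at day 9, so its difference went from 4.68 to 2.46, 1.02 and -1.44. MMP7 was at 18.5 CPM in WT at day 2, 161 CPM at day 5 and 539 CPM at day 9, while CF had 181, 274 and 513 CPM. PLAT had differences of 3.43, -0.02, -0.04 and -1.12, and PSCA of 3.83, 1.64, 1.0 and 0.28. GUCA2A, CD68, MFGE8, ZFAND2A and MUC4 had day 2 differences of 2.69, 2.17, 1.94, 1.57 and 0.94. PAX6 went from 2.03 at day 2 to 0.01 at day 5, and HES1 from -1.0 to 0.23. The WT side of these changes covers all WT cells, whose make-up differed between days.

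**Figure D5:**
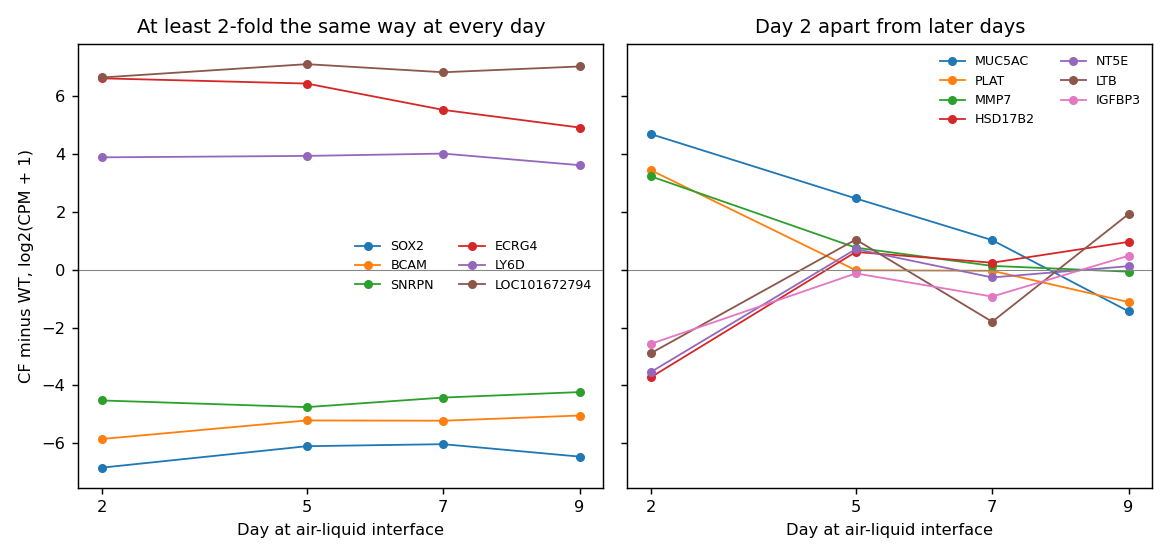
CF minus WT difference on the log2(CPM + 1) scale against day at the air-liquid interface (2, 5, 7 and 9), 1 library per genotype and day, for 6 genes whose difference kept its direction and passed 2-fold on every day (left) and 7 genes whose day 2 difference lies apart from later days (right). SOX2, BCAM and SNRPN stay between -6.84 and -4.23 and ECRG4, LY6D and LOC101672794 between 3.61 and 7.10, whereas MUC5AC, PLAT and HSD17B2 cross or reach zero after day 2.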

How the data were processed

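Single cells of WT and CFTR KO/KO PDE cultures were sequenced by a 10x droplet method at 4 time points, in 8 libraries, 1 per genotype and day. The submitters' processing notes name Cell Ranger 5.0.1, R 4.1.2 and Seurat. Per the study's methods, reads were aligned to the ferret assembly ASM1176430v1.1 with an improved gene annotation. The deposited values were raw UMI counts per gene and cell, and the deposited cell table gave the retained cells, their UMI counts, the percent of mitochondrial UMIs, clusters and cell classes. Per the same methods, doublets had been removed with DoubletFinder before the retained cells were fixed, so no caller was run here. The authors' normalized values and lineage scores were not used, and 0 other per-sample columns were left out.

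UMI counts were summed over the retained cells of a library and divided by their total to give CPM. Genes of at least 10 CPM in either library were compared as log2(CPM + 1), and a difference of at least 2-fold was called. With 1 library per genotype no test was run. Intervals are exact Poisson, binomial or conditional binomial and cover counting error only. Folds against a count of 0 used a limit of 3 UMIs per library. For shares of cells, every cell was first reduced at random to 3000 UMIs, leaving out shallower cells. A cluster was left unnamed where its top 10 genes by fold matched another class better than its own, or where its cells were shallow and none of those genes was a marker of its class. A tie between classes, also with no marker of either, otherwise kept the name. RefSeq names matched 27467 of 27912 genes. Python 3.11.15, numpy 2.4.6, pandas 2.3.3 and scipy 1.17.1 were used. edgeR 4.0.16 and DESeq2 1.42.0 gave alternative scaling factors only. The scripts were tested on simulated data.

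The comparison, the 43 gene lists, the SOX2 split and its limit of 10 CPM were chosen with earlier results of these data known. Named genes were CFTR, PDX1, SOX9, PAX6, HES1, NKX6-1 and ONECUT1; the 15 symbols of at least 20 CPM, and 5 LOC genes, with the largest difference in each direction; up to 5 members of each list; 5 symbols per class and direction; and the 10 symbols per direction whose day 2 difference lay farthest from those of later days. KRT19, EPCAM, KRT5, TP63, INS, GCG, IRX3, SELENOM, EFEMP1, FGFR3, CACNA2D1, DSC3, LDHB, SLC25A4, FOXD1, MKI67 and TOP2A, the class markers and the genes of neighbour runs were named outside this rule, after their values were seen. The alternatives tried were another pseudocount, other scaling factors, other filters, every deposited barcode, equal weight per cell, subsets of cells, and totals without mitochondrial genes. A few genes of the lists are not reported here.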

Additional observations from a re-analysis of the deposited data

Results flagged for a closer look

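For 6 named genes the day 2 difference between CF and WT was at least 2-fold and a later day showed at least 2-fold the other way. Each value rests on 1 library per genotype and day, and the change between days was not tested. LTB had a log2 difference of -2.88 at day 2, 1.04 at day 5, -1.80 at day 7 and 1.92 at day 9, with 13 CPM in WT and 27.7 CPM in CF at day 5. DUOX2 had 1.18 at day 2, -1.86 at day 7 and -1.20 at day 9. FOSL1 had 1.2 at day 2 and -1.32 at day 9, and FST had -1.19 and 1.68. MUC5AC went from 4.68 at day 2 to -1.44 at day 9, and PLAT from 3.43 to -1.12, when WT was at 52.8 CPM and CF at 23.8 CPM.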

How the results depend on the processing

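Of 801 values recomputed under an alternative, 481 stayed within 1 counting interval or 1.5 times a count and the others moved further. Among these, 6 differences of at least 2-fold changed sign, as did smaller ones of SOX9 (-0.18 against SOX2-low WT cells) and DLK2 (0.30 there and 0.03 with equal weight per cell). The 342 higher and 321 lower genes became 572 and 610 with genes of at least 1 CPM, 572 and 610 without a filter, and 156 and 123 against SOX2-low WT cells alone, where the 10 CPM filter was applied again to CF and those cells in place of the 7899 genes. Under the other alternatives the counts stayed between 245 and 436 higher and between 227 and 371 lower. The 371 came from SOX2-high WT cells, where that filter was also applied again, in place of 358 over the 7899 genes. The CFTR difference was -0.63 with a pseudocount of 5 CPM and -0.85 against SOX2-low WT cells, and that of PDX1 was 0.74 with a pseudocount of 5 CPM. With that pseudocount 7 S phase and 9 G2 and mitosis genes were lower. In ductal cells alone 1 S phase gene and 0 mitotic genes were lower and 2 interferon-stimulated genes higher. The same counts came from ductal cells that passed the marker check, with 3 metalloproteinase genes higher there. Outside the proliferating classes, a set that keeps the 339 WT acinar cells, 15 S phase genes and 1 mitotic gene were lower. Against SOX2-low WT cells, under that filter, which drops members such as SOX2 and TBX1, 0 gut tube factors, 0 S phase, 1 mitotic and 2 inflammatory genes were lower, and 1 TGF-beta, 2 metalloproteinase and 0 interferon-stimulated genes higher. There BCO2 was at 1.29, HSD17B2 at 0.09, IGFBP3 at 1.40, NT5E at 0.22, PAX6 at -0.48 and RNF125 at 0.37. With equal weight per cell 3 interferon-stimulated genes were higher, and 12 against SOX2-high WT cells. This set and the checked ductal cells were chosen after seeing the data. The cause was not tested for any of these. With unnamed clusters left out, the ductal share differed by -20.2 percentage points, the centroacinar share by 26.8 and the centroacinar progenitor share by 5.80. No paired analysis was possible because the day 2 comparison has 1 library per genotype and comes from no test, and libraries of later days are not replicates of day 2. Depth limits genes under about 3 UMIs per library.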
